A study of Mus musculus with 18 samples.

Results

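The 38 genes described here mark spleen cells other than CD8 T cells. They were taken by symbol in the GENCODE M21 annotation, and each matched a single row among the 56748 gene IDs of the count files. They form 9 lists: B cell (5 genes), MHC class II presentation (4), plasma cell (2), monocyte and neutrophil (10), tissue macrophage (5), erythroid (6), CD4 (1), natural killer (1) and dendritic cell (4). The libraries are poly-A RNA-seq of CD8 T cells that were FACS-sorted from the spleens of WT mice, 6 libraries on each of 3 diets. ND stands for 12 weeks of normal diet and HFD for 12 weeks of high fat diet. SW mice had 6 weeks of high fat diet and then 6 weeks of normal diet. The sources used here give neither strain nor age, nor whether each library is a mouse of its own, so p-values measure only the spread between these samples.

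The spleen filters blood and holds B cells, T cells, red pulp macrophages, monocytes, neutrophils and dendritic cells side by side, so a sort from it can carry RNA of its neighbours. B cells show their antigen receptor through CD79A and CD79B, and plasma cells join secreted antibody with the J chain. MHC class II molecules, with the invariant chain CD74, present peptides to CD4 T cells on B cells, macrophages and dendritic cells. In the mouse spleen, conventional dendritic cells that carry XCR1 and WDFY4 and take up dead cells also carry CD8 alpha chains on their surface. Red cells and their precursors hold globin RNA, which leaks readily into preparations of other cells.

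Total counts ran from 11947339 to 16398340 per library, and 18963 to 20155 genes had a count in 17 libraries. HFD 4 stood apart with 17570 genes, although its total of 15878207 was among the higher ones. HFD 1 and HFD 4 also had the highest levels of several markers below, so fold changes in which either was highest are also given without them. Cd8a, the CD8 alpha chain, ranged from 1369 to 1635 CPM (counts scaled by TMM library sizes), and the 9 T cell identity genes summed to between 7027 and 7901 CPM. All levels in CPM below are on that scale, fold changes are log2 differences from edgeR with standard errors (SE), and a call means a p under 0.05 after Benjamini-Hochberg adjustment over all 13690 genes tested.

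The MHC class II and the globin genes are 2 families whose members moved together, so upstream sequences of both are shown first. H2-Aa (17, 34282744 to 34287823) and H2-Eb1 (17, 34305867 to 34316674) encode an alpha and a beta chain of MHC class II. Below are 80 bases of each, RefSeq promoter windows of GRCm38.p6, read 5′ to 3′ on the strand of the gene. Capitals mark CTGATTGG, the core of the Y box, an element that MHC class II promoters share. It starts 51 bases before the RefSeq start site in H2-Aa (minus strand) and 62 bases before it in H2-Eb1 (plus strand).
H2-Aa, chr17:34287845-34287924: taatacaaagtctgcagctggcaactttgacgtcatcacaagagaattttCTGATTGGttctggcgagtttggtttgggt
H2-Eb1, chr17:34305755-34305834: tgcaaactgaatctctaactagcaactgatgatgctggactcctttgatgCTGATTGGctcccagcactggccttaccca
Among 32851 RefSeq promoter windows of 250 upstream bases, 3.83% held CTGATTGG on either strand. Of the 23 markers found in that table, H2-Aa and H2-Eb1 were the ones that held it. H2-Ab1 and Cd74 were not in that table and were not searched. The 4 globin genes are shown with 60 bases each around GATAAG, in capitals, a sequence that GATA factors of red cell precursors bind.
Hba-a1, chr11:32283463-32283522, plus strand: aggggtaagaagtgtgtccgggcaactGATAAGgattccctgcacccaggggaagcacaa
Hba-a2, chr11:32296280-32296339, plus strand: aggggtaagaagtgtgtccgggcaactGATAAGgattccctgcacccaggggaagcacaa
Hbb-bs, chr7:103828105-103828164, minus strand: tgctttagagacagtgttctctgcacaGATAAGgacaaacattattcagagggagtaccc
Hbb-bt, chr7:103814095-103814154, minus strand: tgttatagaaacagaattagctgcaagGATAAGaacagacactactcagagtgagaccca
GATAAG stood 182 and 185 bases before the RefSeq start sites of Hba-a1 and Hba-a2, and 209 and 204 bases before those of Hbb-bs and Hbb-bt. It occurred on either strand in 6.55% of the same 32851 windows, and in none of the other 19 markers searched, Alas2 included. A match describes the letters and was not tested as a site.

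Against the T cell genes most markers were low. Per transcript length, mean FPKM over the 18 libraries was 426 for Cd8a, and 21 of the 38 markers had under 1% of that level. Ighm, the constant region of IgM, had the highest of the 38 at 286 FPKM, which was 67.0% of the Cd8a level. It was followed by Cd74 at 262 FPKM and by Cst3, a cystatin that dendritic cells make in quantity, at 200 FPKM. The MHC class II chains H2-Eb1, H2-Ab1 and H2-Aa came next with 107, 89.2 and 44.5 FPKM. At the other end, Mzb1, a plasma cell chaperone cofactor, had no count in 12 of 18 libraries and at most 3 counts. The macrophage genes Adgre1, C1qa, C1qb and C1qc and the natural killer receptor gene Ncr1 had medians of 3 to 5 counts, and each lacked a count in 1 to 3 libraries. A count of 0 allowed 3 counts, which was 0.183 to 0.251 CPM depending on the library, and this limit covers counting error only. The low-count filter removed these 6 genes, so 32 of the 38 were tested.

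**Figure D1:**
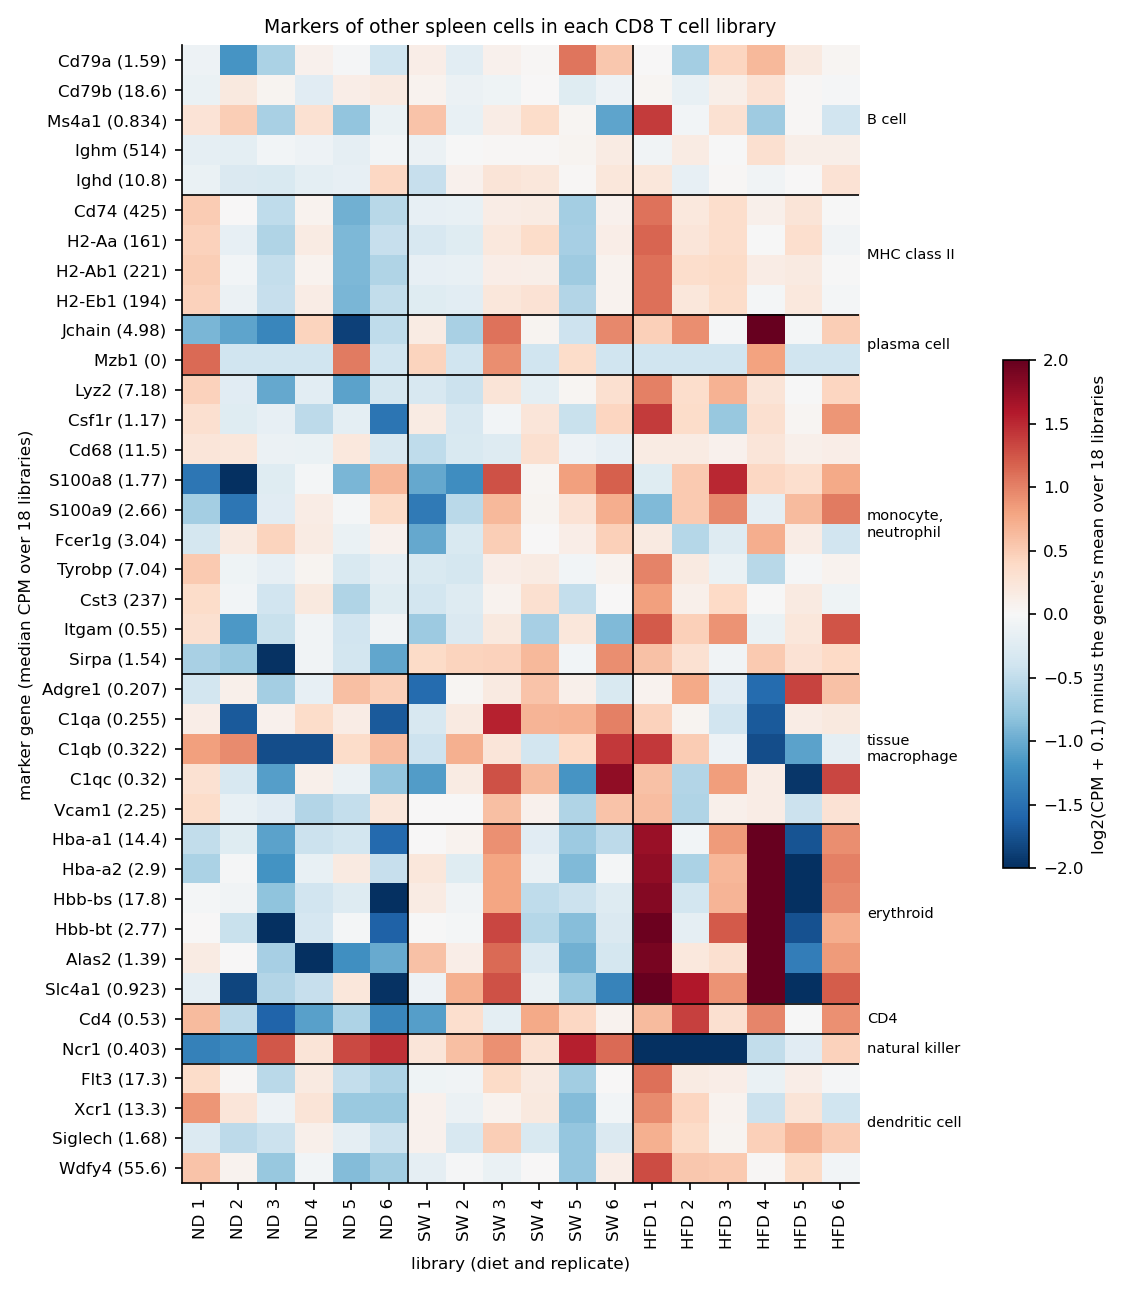
Level of each of the 38 markers in each library, as log2(CPM + 0.1) minus the gene's mean over the 18 libraries, with the color range ending at -2 and 2; rows are grouped by list and give the gene's median CPM. The rows of MHC class II, Flt3, Xcr1 and Wdfy4 are red together in HFD 1 and ND 1 and blue together in ND 5 and SW 5, and the erythroid rows are red in HFD 1 and HFD 4.

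HFD was compared with ND to see whether a continued high fat diet went with more RNA of other cells. Of the 32 tested markers, Ighm and Sirpa rose in HFD and none fell. Across all 13690 genes 1.62% were called in either direction and 0.665% were called higher. Without the adjustment, 19 of 32 markers had p under 0.05 and a higher level in HFD, against 7.79% of all genes tested. The difference was above 0 for 31 of 32, with Fcer1g the exception at -0.04, against 52.4% of all genes. The median log2 difference was 0.64 over the 32 markers and 0.01 over all genes tested. The low-count filter shaped which markers entered. The scarce genes Cd4 and Itgam, each highest in an HFD library, passed it, while Ncr1, whose median was lowest in HFD, did not. The shares and the median above therefore lean toward higher levels in HFD. Without HFD 1 and HFD 4, Ncr1 also passed the filter. There 10 of 33 tested markers had an unadjusted p under 0.05 and a higher level in HFD, against 6.50% of all genes. Of these 33, 28 lay above 0, and the median was 0.40. These genes share their source cells and libraries, so their number does not count independent signs. For none of the 32 did all HFD libraries lie above every ND library, or all below every one. This held for 1.67% of all genes.

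**Figure D2:**
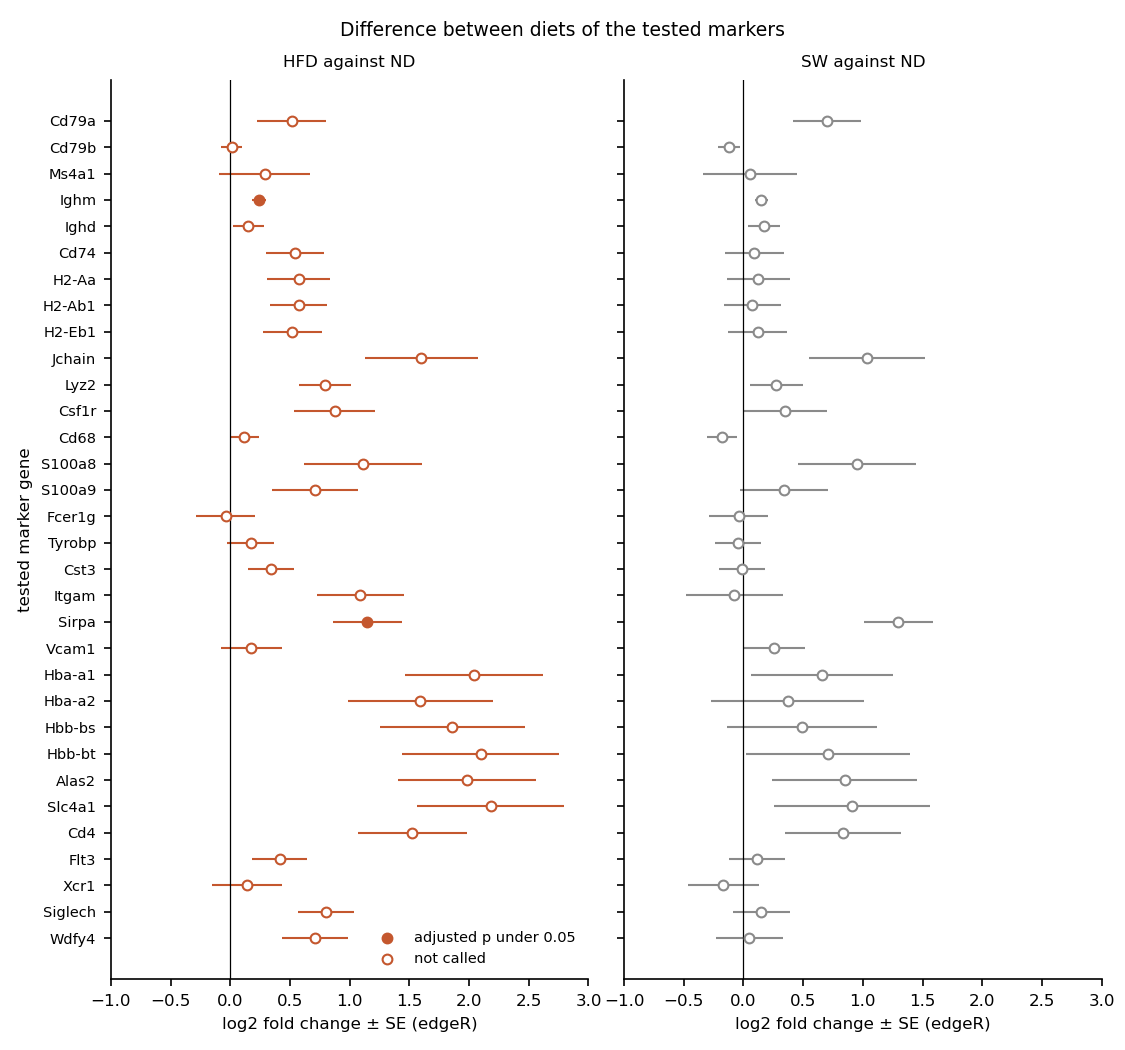
Log2 fold change with its SE of the 32 tested markers, HFD against ND on the left and SW against ND on the right; filled points had an adjusted p under 0.05. In the left panel 5 of the 6 erythroid genes lie furthest to the right, with wide errors, and the filled points are Ighm at 0.24 and Sirpa at 1.15.

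SW was compared with ND to see whether a difference remained 6 weeks after the return to normal diet. The edgeR test called none of the 32 markers, where 0.0146% of all genes were called. DESeq2 called none either, and limma-voom called 1, Sirpa. Of the markers, 4 had an unadjusted p under 0.05 and were higher in SW (Cd79a, Ighm, Jchain and Sirpa), against 3.44% of all genes. The difference was above 0 for 25 of 32 against 50.9% of all genes, and the median was 0.16. Sirpa was the 1 marker whose SW and ND libraries did not overlap, against 0.716% of all genes. SW against HFD gave no call among the markers by edgeR, DESeq2 or limma-voom, against 0.124% of all genes by edgeR. Of the 32, 9 had an unadjusted p under 0.05 and were lower in SW, against 5.64% of all genes, and 27 lay below 0 against 51.3%. None was without overlap, against 0.782% of all genes. HFD against ND and SW against ND share their ND libraries, so their likeness is no separate support.

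The B cell list held genes of very different level and no common pattern. The genes most restricted to B cells were near the floor: Cd79a, a signalling chain of the B cell receptor, ranged from 0.628 to 3.37 CPM and Ms4a1, which encodes CD20, from 0.339 to 2.31 CPM. Cd79b, the partner chain of Cd79a, ran from 15.6 to 22.6 CPM, and its correlation with Cd79a did not pass (Pearson r = -0.21, Spearman rho = -0.11, adjusted permutation p = 0.538 and 0.757 over 16 pairs, n = 18 libraries). Within diets r was -0.65 in ND, -0.63 in SW and 0.93 in HFD, over 6 libraries each. Without ND 2 and SW 5, the libraries farthest from the median of Cd79a, r was 0.26. Cd79a and Ms4a1 had r = -0.15 and rho = -0.06 (adjusted permutation p = 0.589 and 0.819), with r = -0.07 without the same libraries. The median r over the 10 pairs within the list was -0.05.

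Ighm (12, 113418558 to 113422730) had 451, 472 and 499.7 CPM as the lowest, median and highest ND library. In SW these were 476, 527 and 580 CPM, and in HFD 495, 563 and 644 CPM. Only HFD 1 fell within the ND range, at its upper end, and HFD 4 was highest. Ighm rose in HFD by 0.24 ± 0.06 (SE; adjusted p = 0.0361), with 6 of 6 HFD libraries above the ND mean. SW against ND was 0.15 ± 0.06 (adjusted p = 0.561). The call was lost without any of ND 1 to ND 5, HFD 2, HFD 4, HFD 5 or HFD 6 (adjusted p up to 0.0957), while the fold change stayed between 0.19 and 0.26. It was kept without HFD 1 and HFD 4 together, at 0.22 (adjusted p = 0.0432), and within replicates 3 to 6, at 0.23 (adjusted p = 0.0462). Ighm and Cd79a, a pair examined after the values had been seen, had r = 0.46 and rho = 0.50 (r = 0.35 without ND 2 and SW 5), the highest r of the 10 pairs within the list. The CPM of Ighm was 160 to 718 times that of Cd79a, whose counts of 9 to 48 per library make this ratio imprecise. Ighd, the IgD constant region next to Ighm, ranged from 7.80 to 14.3 CPM (r = 0.37 and rho = 0.46 with Ighm, adjusted permutation p = 0.265 and 0.115; r = 0.43 without HFD 4 and ND 2). Of the non-member genes, the closest to the summed B cell list were Gimap6 (r = 0.89), Ifitm10 (0.88), Acot7 (0.87), Gm8369 (0.86) and Id2 (0.84) over 18 libraries, out of 12415 genes compared. Most of that sum was Ighm, so these genes follow Ighm rather than the list as a whole.

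The 4 MHC class II genes kept a nearly fixed proportion to each other while their level changed up to 4.10-fold between libraries. Their summed level was lowest in ND 5 at 503 CPM and highest in HFD 1 at 2065 CPM, with ND 1 next at 1347 CPM. The ratio of H2-Aa to H2-Eb1, genes of the class II alpha and beta chains whose promoters are printed above, stayed between 0.736 and 0.879. H2-Aa and H2-Eb1 had r = 0.99 and rho = 0.99 (adjusted permutation p = 4e-05 and 8e-05 over 16 pairs, n = 18; the unadjusted 1e-05 is the smallest that 100000 permutations can give). It was 0.99 without HFD 1 and ND 5 as well, and 0.99 or more within each diet. The library, its depth and its RNA input are shared by both genes in such a correlation.

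H2-Ab1 (17, 34257689 to 34269419), a class II beta chain gene, had 113, 177 and 296 CPM in ND as the lowest, median and highest library. SW had 129, 204 and 230 CPM and HFD had 209, 254 and 450 CPM. HFD 1 lay far above the other HFD libraries, and all 6 HFD libraries lay above the ND median. The log2 difference of HFD against ND was 0.57 ± 0.24 (SE; adjusted p = 0.274), without HFD 1 it was 0.38 (adjusted p = 0.457), and without HFD 1 and HFD 4 it was 0.40 (adjusted p = 0.519). Cd74, the invariant chain, had 207, 344 and 575 CPM in ND, 252, 397 and 452 in SW, and 402, 475 and 859 in HFD, again with HFD 1 on top and overlap between all diets. Its difference was 0.54 ± 0.24 (adjusted p = 0.316), 0.34 without HFD 1 (adjusted p = 0.529) and 0.37 without HFD 1 and HFD 4 (adjusted p = 0.570). The gap between the lowest and the highest ND library was wider than that between the ND and the HFD median.

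The dendritic cell list followed MHC class II from library to library. The median r over the 16 pairs of a dendritic with an MHC class II gene was 0.90, against 0.16 over the 20 pairs of a B cell with an MHC class II gene, among which Ms4a1 was highest at a median of 0.59. Wdfy4, needed by XCR1-bearing dendritic cells for cross-presentation, had 30.5, 44.0 and 83.4 CPM in ND as the lowest, median and highest library. It had 32.5, 52.9 and 61.2 CPM in SW and 53.6, 76.8 and 137 CPM in HFD. HFD 1 and ND 1 were highest and ND 5 and SW 5 lowest, as for MHC class II, and the diets overlapped. The difference of HFD against ND was 0.71 ± 0.27 (adjusted p = 0.227), with 6 of 6 HFD libraries above the ND mean, and 0.55 without HFD 1 and HFD 4 (adjusted p = 0.401). Xcr1, a chemokine receptor gene of the same cells, ranged from 6.87 CPM in SW 5 to 24.4 CPM in HFD 1, with ND 1 at 23.4 CPM. ND averaged 13.4 ± 5.97 CPM and HFD 14.8 ± 5.60 CPM (SD, n = 6), a difference of 0.14 ± 0.29 (adjusted p = 0.876), which was -0.066 without HFD 1 (adjusted p = 0.944) and 0.031 without HFD 1 and HFD 4 (adjusted p = 0.979). Flt3, the receptor for a growth factor of dendritic cells, ran from 10.5 CPM in SW 5 to 36.6 CPM in HFD 1, and its difference was 0.42 ± 0.23 (adjusted p = 0.422). It was 0.17 without HFD 1 (adjusted p = 0.724) and 0.22 without HFD 1 and HFD 4 (adjusted p = 0.688).

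**Figure D3:**
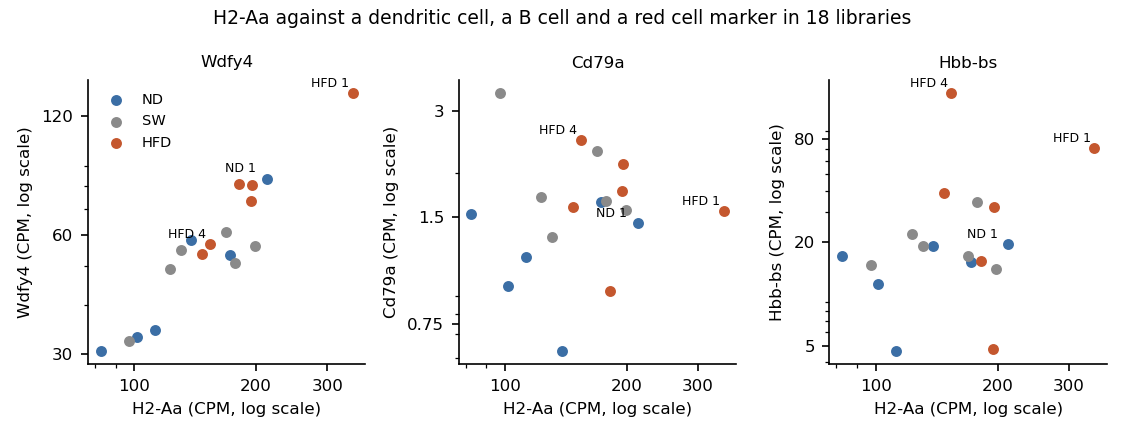
CPM of H2-Aa against Wdfy4, Cd79a and Hbb-bs in the 18 libraries, colored by diet, both axes on log scales. Wdfy4 rises with H2-Aa over the whole range (r = 0.94), whereas the 18 points for Cd79a have no common direction (r = 0.04) and HFD 4 is highest in Hbb-bs at a middle level of H2-Aa.

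Further pairs were examined after the values had been seen and carry no p-value. H2-Aa had r = 0.94 with Wdfy4, 0.83 with Xcr1 and 0.80 with Clec9a, a receptor for dead cells on the same dendritic cells. Without the libraries farthest in H2-Aa, HFD 1 and ND 5, these were 0.88, 0.72 and 0.68. Within each diet the r of H2-Aa with Wdfy4 was 0.95 in ND, 0.79 in SW and 0.98 in HFD. H2-Aa with Cd79a, a fixed pair, had r = 0.04 and rho = 0.08 (adjusted permutation p = 0.882 and 0.789), and r = 0.26 without ND 2 and SW 5. Over the wider dendritic list, the median r with the MHC class II genes was 0.97 for the transcription factor gene Irf8. It was 0.93 for Itgax, which encodes CD11c, 0.89 for Cadm1, 0.80 for Clec9a and 0.71 for Zbtb46. Batf3 and Tcf4 had 0.43 each, Cd209a had 0.03, and Bst2 and Ccr9 had -0.40 and -0.41. The non-member genes closest to the summed dendritic list were Mpeg1 (r = 0.99), Plbd1 (0.98), Ppt1 (0.98), Irf8 (0.97) and Psap (0.95), and 4 of these 5 were shared with the genes closest to the MHC class II sum, which were Plbd1 (0.99), Irf8 (0.97), Ppt1 (0.97), Mpeg1 (0.97) and Naaa (0.96). Of the 9 T cell identity genes, Cd8a had a median r of -0.50 with the MHC class II genes, and the others ran from -0.25 (Cd3g) to -0.09 (Cd8b1). All of these are descriptions over the same 18 libraries.

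Siglech, a lectin gene of plasmacytoid dendritic cells, was scarce and less tied to the others. It had 1.19, 1.36 and 1.89 CPM in ND as the lowest, median and highest library, 0.982, 1.41 and 2.49 CPM in SW, and 1.83, 2.51 and 2.92 CPM in HFD. Only HFD 3 lay below the highest ND library, ND 4. The difference of HFD against ND was 0.80 ± 0.23 (adjusted p = 0.0772), and 0.74 without HFD 1 and HFD 4 (adjusted p = 0.172). Its median r with the MHC class II genes was 0.59. Of 10 tested genes of the wider dendritic list edgeR called none in any comparison. In HFD against ND 1 was higher and 1 lower at an unadjusted p under 0.05, against 1067 and 971 of all 13690 genes. In that comparison 6 of the 10 lay above 0, against 52.4% of all genes. Their differences ran from -0.43 to 0.53 with a median of 0.14. In that list Ccr9 and Bst2, which plasmacytoid dendritic cells carry but T cells also express, had 102 and 95.1 CPM in HFD against 125 and 107 CPM in ND.

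Among monocyte and neutrophil genes, Cst3, the most abundant, went most closely with the dendritic genes. Lyz2 and Tyrobp did so less closely, and the rest fell into loose sets. Cst3 (2, 148871722 to 148875692) had 157, 215 and 308 CPM in ND as the lowest, median and highest library, 172, 219 and 297 CPM in SW, and 223, 262 and 418 CPM in HFD. ND 5 was lowest and HFD 1 highest, the same libraries as for MHC class II, and the diets overlapped. The difference of HFD against ND was 0.34 ± 0.19 (adjusted p = 0.430), 0.20 without HFD 1 (adjusted p = 0.683) and 0.23 without HFD 1 and HFD 4 (adjusted p = 0.678). Its median r with the MHC class II genes was 0.96. Lyz2, the lysozyme gene of monocytes and macrophages, ranged from 3.32 to 14.4 CPM and had r = 0.77 and rho = 0.71 with Cst3 (adjusted permutation p = 0.000544 and 0.00355), and r = 0.67 without ND 3 and ND 5. With Tyrobp, a signalling adaptor of myeloid and natural killer cells, it had r = 0.61 and rho = 0.66 (adjusted permutation p = 0.0191 and 0.0106). That relation was r = 0.98 within replicates 1 and 2 of all diets and 0.26 within replicates 3 to 6. The median r of Lyz2 and Tyrobp with the MHC class II genes was 0.81 and 0.73. In the rest of the list Csf1r was highest at 0.58. The difference of Lyz2 in HFD against ND was 0.80 ± 0.22 (adjusted p = 0.0621), with 6 of 6 libraries above the ND mean. It was called without ND 1 (1.02, adjusted p = 0.0116), without HFD 5 (0.88, adjusted p = 0.0461) and within replicates 3 to 6 (0.97, adjusted p = 0.0115), and it was 0.68 without HFD 1 and HFD 4 (adjusted p = 0.165).

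Sirpa (2, 129592835 to 129632228), a receptor on myeloid cells that binds CD47, was low in every library but differed between diets. The lowest, median and highest ND libraries had 0.240, 0.725 and 1.18 CPM. SW libraries had 1.19, 1.73 and 2.44 CPM, all above ND, and HFD had 1.17, 1.61 and 1.90 CPM, of which HFD 3 alone reached down into the ND range. Sirpa rose in HFD by 1.15 ± 0.29 (SE; adjusted p = 0.0406), and its difference in SW against ND was 1.30 ± 0.29 (adjusted p = 0.113). These levels rest on 3 to 36 counts per library. The HFD call was lost without ND 1, ND 2, ND 3, ND 5, ND 6, SW 3, HFD 1, HFD 2, HFD 4, HFD 5 or HFD 6 (adjusted p up to 0.0924) and without HFD 1 and HFD 4 together (1.03, adjusted p = 0.119), and within replicates 3 to 6 the difference was 1.09 (adjusted p = 0.192). Sirpa had a median r of 0.44 with the MHC class II genes. The median SW against ND difference of the 4 MHC class II genes was 0.11, but -0.0082 without ND 5 and 0.42 within replicates 3 to 6.

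The neutrophil genes S100a8 and S100a9, the subunits of calprotectin, ran from 0.209 to 4.54 CPM and from 0.837 to 5.14 CPM. They varied together (r = 0.87, rho = 0.88, adjusted permutation p = 4e-05 and 8e-05; r = 0.81 without ND 1 and ND 2) and apart from MHC class II, with median r of 0.10 and -0.04. Itgam, which encodes CD11b, had at most 1.54 CPM, and Csf1r, the receptor of a macrophage growth factor, at most 3.26 CPM. The lysosomal gene Cd68 stayed between 7.56 and 13.4 CPM and Fcer1g, a signalling chain shared by Fc receptors, between 1.33 and 4.70 CPM. In this list 5 of 10 genes had an unadjusted p under 0.05 and were higher in HFD than in ND, against 7.79% of all genes. The median difference of the list was 0.75, and 0.63 without HFD 1 and HFD 4.

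Tissue macrophage genes were at or near the floor on every diet. The highest library had 0.832 CPM of C1qa, 0.815 of C1qb and 1.22 of C1qc, the subunits of complement C1q that red pulp macrophages make, and 0.637 CPM of Adgre1, which encodes F4/80. C1qa and C1qb did not track each other at these counts (r = 0.15, rho = 0.14, adjusted permutation p = 0.589 and 0.697; r = 0.03 without HFD 4 and ND 6), nor did C1qa and Adgre1 (r = 0.25, rho = 0.22, adjusted permutation p = 0.471 and 0.558; r = 0.13 without the same libraries). Vcam1, an adhesion molecule of red pulp macrophages and stroma, was the tested member. It had 1.42, 1.90 and 2.82 CPM as the lowest, median and highest library in ND, 1.40, 2.25 and 3.33 in SW, and 1.40, 2.38 and 3.40 in HFD. The diets overlapped over nearly their whole range, and the difference of HFD against ND was 0.18 ± 0.25 (adjusted p = 0.805), or -0.031 without HFD 1 and HFD 4 (adjusted p = 0.977).

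Of the 8 lists with counts in every library, the erythroid list had the widest range. The summed erythroid level ran from 11.5 CPM in HFD 5 to 334 CPM in HFD 4, 29.1-fold, with HFD 1 at 160 CPM next. Hbb-bs, a beta globin gene, had 4.63, 16.0 and 19.5 CPM as the lowest, median and highest library in ND, 14.0, 17.8 and 34.5 in SW, and 4.77, 35.7 and 150 in HFD. HFD 4 and HFD 1 stood above every other library and HFD 5 was close to the lowest ND library, so the HFD range spanned nearly all others. The difference of HFD against ND was 1.86 ± 0.61 (SE; adjusted p = 0.154), and 0.67 without HFD 1 and HFD 4 (adjusted p = 0.615). Slc4a1, the red cell anion exchanger, had 0.183, 0.674 and 1.19 CPM in ND, 0.339, 0.923 and 2.57 in SW, and 0.0637, 2.87 and 4.83 in HFD. HFD 5, with 1 count, was below every ND library, and the other 5 HFD libraries were above every one. The difference was 2.18 ± 0.61 (adjusted p = 0.0784), and it was called without HFD 5 (2.44, adjusted p = 0.00738), and was 1.61 without HFD 1 and HFD 4 (adjusted p = 0.268).

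The 6 erythroid genes varied together across libraries, with a median r of 0.86 over 15 pairs. Hba-a1 and Hbb-bs, an alpha and a beta globin gene on different chromosomes that hold GATAAG in the windows above, had r = 0.98 and rho = 0.88 (adjusted permutation p = 4e-05 and 0.000107). Without HFD 1 and HFD 4 it was 0.95. Hbb-bs and Alas2, the first enzyme of heme synthesis in red cells, had r = 0.86 and rho = 0.88 (adjusted permutation p = 4e-05 and 0.00012), and r = 0.71 without those libraries. Hba-a1 with Hba-a2, and Hbb-bs with Hbb-bt, are near copies: of the 50-base windows of the Hba-a1 transcript 67.5% also occur in Hba-a2, and of those of Hbb-bs 65.8% occur in Hbb-bt. The sources used here do not say how the counting divided such reads, so the split within each pair is uncertain. All 6 genes had an unadjusted p under 0.05 and were higher in HFD than in ND, against 7.79% of all genes. Their median difference was 2.01, and 0.90 without HFD 1 and HFD 4. The 30 pairs of an erythroid with a B cell gene had r between 0.0075 and 0.38, with a median of 0.19. Of these, Hbb-bs with Cd79a had r = 0.29 and rho = 0.25 (adjusted permutation p = 0.398 and 0.509; r = 0.48 without ND 2 and SW 5). With Lyz2, Hbb-bs had r = 0.50 and rho = 0.55 (adjusted permutation p = 0.0757 and 0.0495), and r = 0.56 without ND 3 and ND 5.

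**Figure D4:**
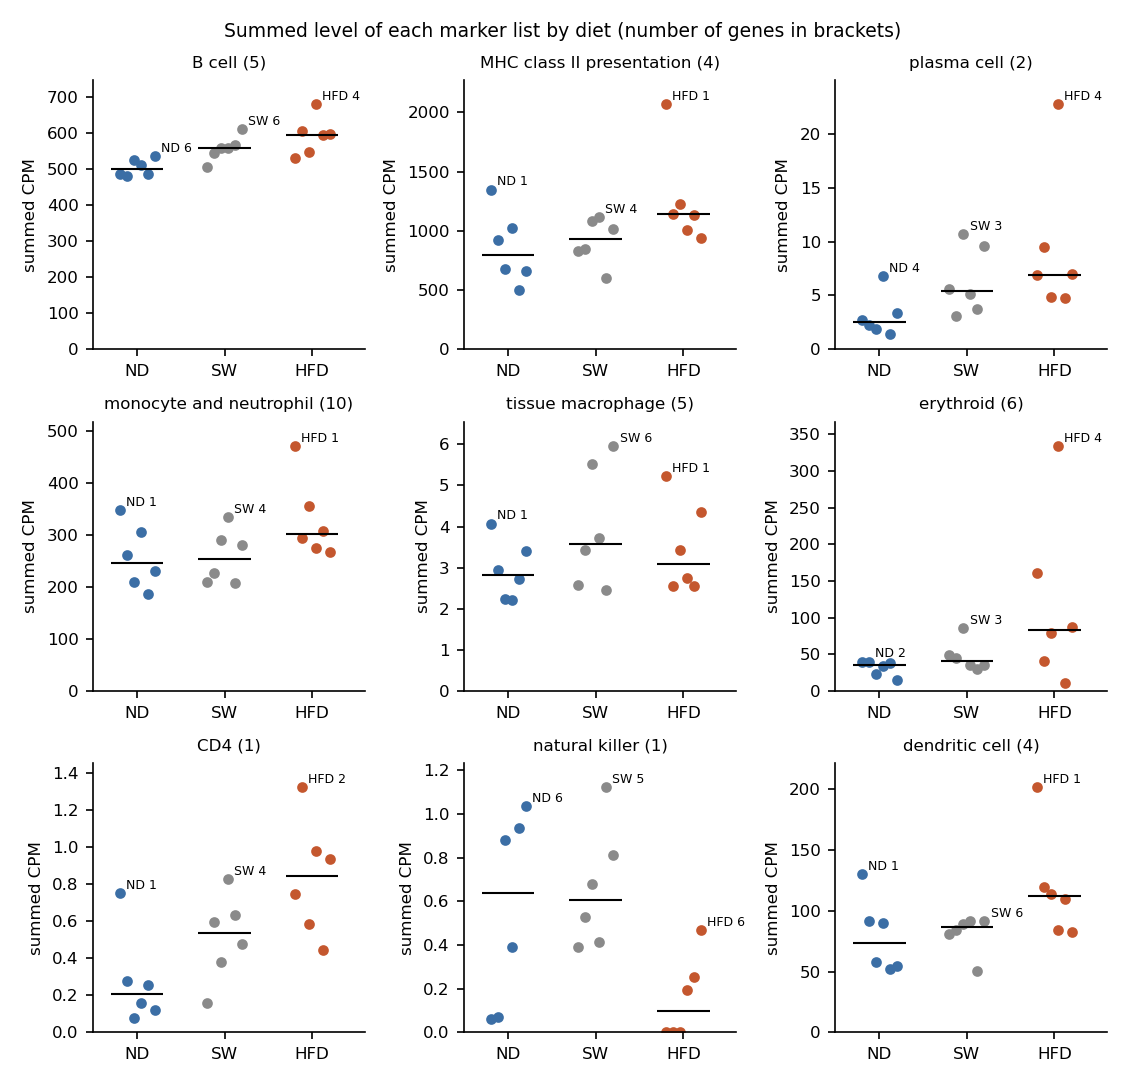
Summed CPM of each of the 9 marker lists in each library by diet; each point is a library, the line is the median of 6, and the highest library of each diet is named. HFD 1 is highest in the MHC class II, monocyte and neutrophil, and dendritic lists and HFD 4 in the B cell, plasma cell and erythroid lists. Ighm makes up most of the B cell sum and Cst3 most of the monocyte and neutrophil sum. Without Ighm the B cell sum was highest in ND 6 at 37.0 CPM, with HFD 4 at 35.7 CPM. Without Cst3 the monocyte and neutrophil sum was still highest in HFD 1, at 53.3 CPM.

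Jchain (5, 88519809 to 88527891) carried the plasma cell list, since Mzb1 was near 0. It had 1.28, 2.43 and 6.76 CPM as the lowest, median and highest library in ND, 3.11, 5.33 and 10.5 in SW, and 4.77, 6.90 and 22.6 in HFD. HFD 4 stood above all others, and ND 4 was the 1 ND library that reached into the HFD range. The difference of HFD against ND was 1.60 ± 0.47 (SE; adjusted p = 0.106), and 1.08 without HFD 1 and HFD 4 (adjusted p = 0.254). Igkc, the kappa light chain constant region, was the non-member closest to the plasma cell sum (r = 0.97), and it had 4.69 to 26.2 CPM in ND, 12.2 to 47.7 in SW and 14.2 to 55.3 in HFD. Id2 (r = 0.86), Lrrk1 (0.81) and Camk2d (0.81) were also among the 5 closest. In the wider plasma cell list 1 of 5 tested genes rose in HFD, Prdm1, the gene of the regulator BLIMP-1 in plasma cells and in differentiated T cells. Prdm1 averaged 3.55 ± 0.346 CPM over ND and 6.72 ± 1.74 CPM over HFD (SD, n = 6), a rise of 0.91 ± 0.19 (SE; adjusted p = 0.0158), and it was called in each of the 18 fits without 1 library.

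Cd4 and Ncr1 stood for other lymphocytes and were scarce. Cd4 (6, 124864692 to 124888221), the co-receptor of helper T cells, had 0.0801, 0.206 and 0.751 CPM as the lowest, median and highest library in ND, 0.156, 0.534 and 0.828 in SW, and 0.446, 0.841 and 1.32 in HFD. The 18 libraries held 1 to 17 counts of it, and ND 1 was the 1 ND library within the HFD range. The difference of HFD against ND was 1.52 ± 0.46 (adjusted p = 0.0855), and it was called without ND 1 (2.16, adjusted p = 0.027). Of 6 tested genes of the wider CD4 list, among them Foxp3 and Cd40lg, edgeR called none, and none had an unadjusted p under 0.05 in HFD against ND. Ncr1 had 0.0626, 0.637 and 1.04 CPM as the lowest, median and highest library in ND, 0.390, 0.605 and 1.12 in SW, and 0, 0.0978 and 0.468 in HFD. HFD 1, HFD 2 and HFD 3 had no count, while every ND and SW library had one, so its median was lowest in HFD, unlike that of most markers. The low-count filter left it out of the main fit, but it passed in some fits with libraries left out. Its difference in HFD against ND was -1.51 without HFD 1 (adjusted p = 0.302) and -1.82 without HFD 4 (adjusted p = 0.260). Without both it was -1.51 (adjusted p = 0.393), and within replicates 3 to 6 it was -1.78 (adjusted p = 0.138). Of 8 further natural killer genes edgeR called none. At an unadjusted p under 0.05, 2 were higher in HFD than in ND, against 7.79% of all genes. Several of the 8, such as Eomes at 87.9 to 131 CPM, are also expressed by CD8 T cells.

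Co-variation was highest within 3 lists and between the dendritic and MHC class II lists (median r = 0.90). The median r within a list was 0.98 for MHC class II (6 pairs), 0.86 for erythroid (15 pairs), 0.73 for dendritic cell (6 pairs), 0.28 for monocyte and neutrophil (45 pairs) and -0.05 for B cell (10 pairs). Between the other lists it ran from 0.11 (B cell with dendritic, 20 pairs) to 0.56 (plasma cell with erythroid, 6 pairs), and it was 0.42 for erythroid with MHC class II genes (24 pairs). Cd79a with Lyz2 (r = 0.32, rho = 0.34, adjusted permutation p = 0.335 and 0.308; r = 0.39 without ND 2 and SW 5) and Lyz2 with C1qa (r = 0.15, rho = 0.17, adjusted permutation p = 0.589 and 0.649; r = 0.25 without ND 3 and ND 5) were weak pairs of sparse counts. In all, 6 of 16 fixed pairs passed by Pearson and 7 by Spearman. The meaning of the replicate numbers is not given. In replicates 1 and 2 of the 3 diets the MHC class II sum ran from 833 to 2065 CPM and in replicates 3 to 6 from 503 to 1228 CPM. Within these sets of 6 and 12 libraries, r was 1.00 and 0.99 for H2-Aa with H2-Eb1, 0.94 and 0.98 for Hba-a1 with Hbb-bs, 0.97 and 0.85 for Hbb-bs with Alas2, 0.76 and 0.75 for S100a8 with S100a9, and 0.96 and 0.64 for Lyz2 with Cst3. Fewer cells of a type and less of their RNA per cell cannot be told apart in such bulk libraries, and no share of cells was computed.

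**Figure D5:**
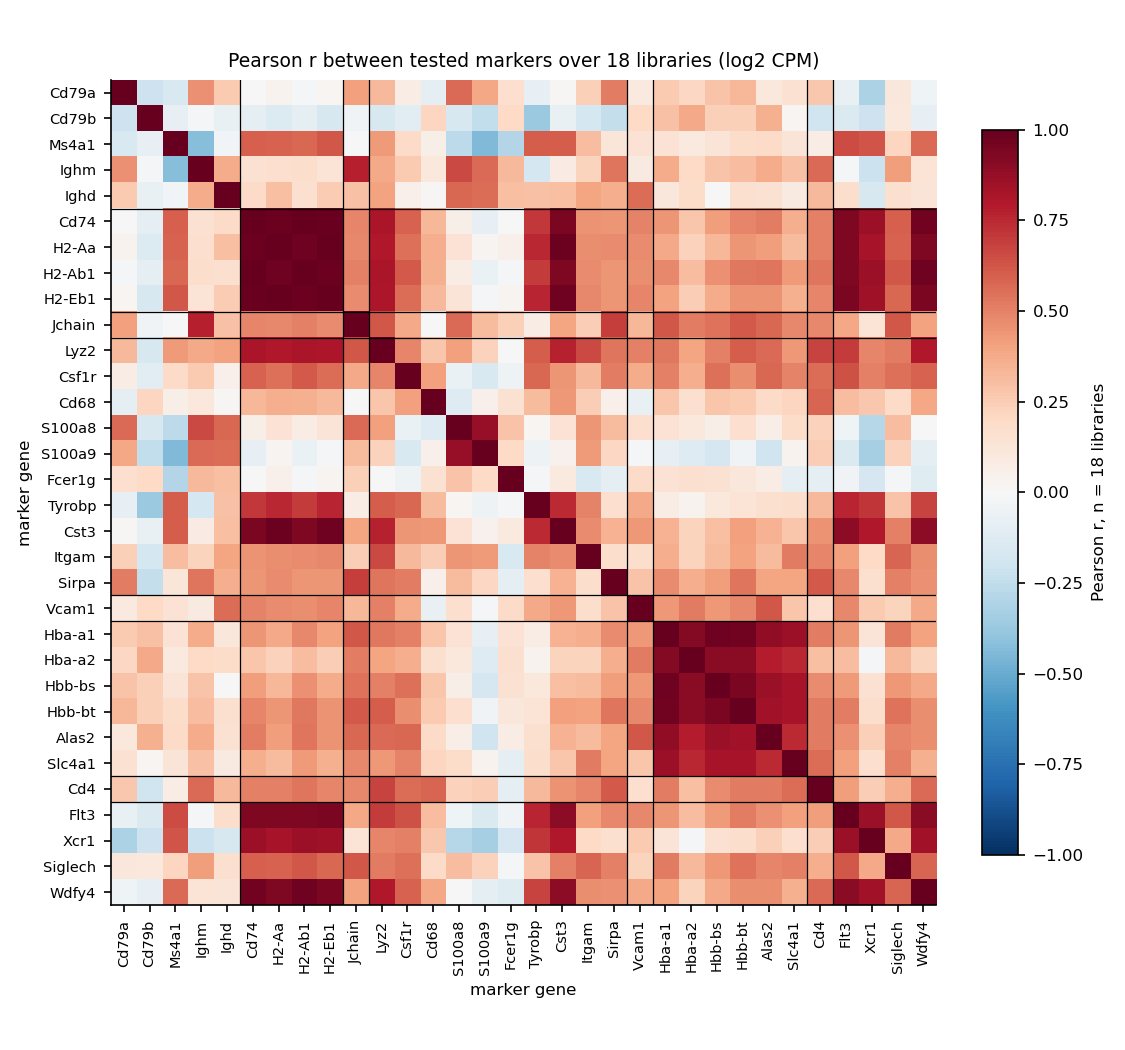
Pearson r of log2 CPM between each pair of the 32 tested markers over 18 libraries, ordered by list with lines between lists. The blocks of MHC class II (median r = 0.98) and erythroid genes (0.86) are dark red, and the B cell block has no common color. The dendritic genes and Cst3 join the first block, and Lyz2 and Tyrobp do so less closely.

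Most markers of further cells were near the floor, and some are expressed by T cells as well. The endothelial gene Pecam1 was well above the floor in every library (112 to 164 CPM). Also above it throughout were the mast cell gene Cpa3 (1.43 to 4.54 CPM) and the platelet genes Itga2b (1.95 to 5.62 CPM) and Gp1ba (1.08 to 2.26 CPM). Of 7 platelet genes 2 were tested and of 5 basophil and mast cell genes 1, and of 6 stromal and endothelial genes 2, with no edgeR call and no unadjusted p under 0.05 in HFD against ND. Pf4 and Ppbp, platelet chemokine genes, had at most 0.15 and 0.26 CPM. In the wider B cell list edgeR called none of 7 tested genes. There 1 was higher in HFD than in ND at an unadjusted p under 0.05, against 7.79% of all genes. Fcrla in that list had a median r of 0.81 with the MHC class II genes. None of the 11 tested genes of the wider monocyte and neutrophil list was called. Of these, 4 had an unadjusted p under 0.05 and were higher in HFD than in ND, against 7.79% of all genes. The 9 T cell identity genes gave no edgeR call and no unadjusted p under 0.05 in HFD against ND, and their median difference was 0.04 in HFD against ND and 0.02 in SW against ND.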

How the data were processed

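Messenger RNA of sorted CD8 T cells was selected by poly-T beads and sequenced in 18 libraries, 6 per diet, grouped by their labels. For each library the authors deposited unnormalized counts per gene. FPKM values were deposited in a separate file. Per the submitters' processing notes, the tool fastp and the builds GRCm38 and mm10 were involved. Aligner, counting tool, strand setting and annotation: not given in the sources used here, so reads of overlapping or antisense genes cannot be told apart. PCR copies were not marked. Gene IDs were named from GENCODE M21 (52125 of 56748 matched, Ahsp of the wider lists did not), which may differ from the release the authors used.

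The quasi-likelihood F test of edgeR 4.0.16 (in R 4.3.3, with TMM, filterByExpr and a robust fit) was applied to the counts, with diet as the only factor in 1 fit of all 18 libraries. The SE of a fold change was derived from the F statistic. Where no other tool is named, an adjusted p of a gene is edgeR's. Correlations used log2 CPM with a prior count of 2 and two-sided permutation tests with 100000 resamples, adjusted over 16 pairs. Deposited FPKM served only to compare genes. Full statistics are given for called members and, in each list, for the most abundant member and the one with the smallest p in HFD against ND, and every called gene of 12 wider lists is named. Some non-member genes are not reported here. Some members beyond that rule, such as Xcr1 and Lyz2, were described after their values were seen. The members and lists were chosen with earlier results of these data known. Alternatives were DESeq2 1.42.0, limma 3.58.1 (voom with sample weights, or log2 FPKM with 0.1 or 1 added), other scalings and filters, replicate terms, and libraries left out. The edgeR fit of HFD against ND was checked on simulated counts with the same spread for every gene. Scarce genes, like several markers here, were not among those changed in it.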

Additional observations from a re-analysis of the deposited data

Results flagged for a closer look

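Within each diet, a library was noted when its log2 CPM lay farther from the nearest other library than Dixon's criterion for 6 samples allows. This held in 14 of 117 groups of libraries examined, and chance alone gives about 1 in 20 groups. The markers share libraries, so these are not separate events. HFD 1 was high in the summed MHC class II level (11.01 on the log2 scale, next library 10.26) and in Cd74 (9.75), H2-Aa (8.44), H2-Ab1 (8.81), H2-Eb1 (8.68) and Flt3 (5.20, next 4.27). SW 5 was low in H2-Ab1 (7.01, next 7.55), the summed dendritic level (5.67, next 6.33), Xcr1 (2.81) and Wdfy4 (5.03).

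Among the remaining groups, HFD 5 was low in Slc4a1 (-2.28, next 1.08), where it held 1 count, and ND 6 was low in Hbb-bs (2.26, next 3.54). Ighd was high in ND 6 (3.85, next 3.31) and low in SW 1 (2.99, next 3.46). No technical record of these libraries was used, and the causes were not tested.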

How the results depend on the processing

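The 222 genes called in HFD against ND became 479 with DESeq2, 374 with limma-voom, 598 with a replicate block and 535 with a factor that parts replicates 1 and 2 from the others, and 89 to 301 without 1 library. The marker genes called there, 2 in the reported fit, were 10 with DESeq2, 4 with limma-voom, 5 with the replicate block, 5 with the factor, 1 with no filter on low counts, 1 in a fit of those 2 diets, 1 without HFD 1 and HFD 4 (added once the values were known) and 0 to 4 without 1 library. In SW against ND 2 genes were called, and 61 with DESeq2, 20 with limma-voom, 1 with RLE size factors, 1 with library totals, 31 with no filter, 0 on log2 FPKM with 0.1 added and 0 with 1 added, 49 with the replicate block, 22 with the factor, 19 with only those diets, 5 in replicates 3 to 6, 14 without HFD 1 and HFD 4, and 0 to 16 without 1 library. Marker calls there were 1 with limma-voom and 1 with the replicate block, both Sirpa, and 0 without any 1 library. In SW against HFD 17 genes were called, and 112 with DESeq2, 6 with limma-voom, 53 with no filter, 1 and 1 on the 2 FPKM scales, 138 with the replicate block, 116 with the factor, 0 with only those diets, 28 without HFD 1 and HFD 4, and 0 to 44 without 1 library, while no marker was called under any alternative. The cause of these changes was not tested. The replicate block added Lyz2 (adjusted p = 0.0242), S100a8 (0.0265) and Jchain (0.0436) to the marker calls, and the factor added S100a8 (0.0322), Lyz2 (0.0406) and Cd4 (0.0458). Deviations of same-numbered libraries had r of 0.12 to 0.22 in the 6 pairs of replicates 1 and 2 and -0.031 to 0.12 in the 12 pairs of replicates 3 to 6, of which 1 was over 0.1. Not every pair was over 0.1 and 5 of 18 libraries correlated best with their own number, so the numbers were not taken to pair samples.

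Vcam1 in HFD against ND changed sign to -0.031 without HFD 1 and HFD 4, and Xcr1 to -0.066 without HFD 1. Ms4a1 and Tyrobp also changed sign without HFD 1, to -0.16 and -0.078, and Cd79b without HFD 4, to -0.042. Ighm was called in 22 of 31 alternatives (0.19 to 0.26) and Sirpa in 16 of 31 (0.22, on the log2 FPKM scale with 1 added, to 1.33). Hbb-bs was called in 1, with DESeq2, and ranged from 0.67 to 2.25. Genes with a median under about 20 counts per library, such as Cd4, Itgam and Slc4a1, are limited by depth.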
